A study of Mus musculus with 8 samples.

Results

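The genes described here encode the proteoglycans, adhesive glycoproteins and elastic fibre proteins of the extracellular matrix, with the collagens left out. They are 40 mouse genes listed by symbol, and every array probe annotated to one of these symbols was taken. At least 1 probe was named for 36 of the 40, which gave 62 of the 25697 probes on the array. Fn1 (fibronectin), Spp1 (osteopontin), Efemp2 (fibulin 4) and Fbn1 (fibrillin 1) had no probe named for them and were not analysed here. A single probe served 24 of the measured genes, and 12 had several.

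The arrays carried RNA of mouse embryonic fibroblasts (MEFs), the matrix-producing cells that grow out of dissociated embryos. The compared lines were a knock-in (KI) line, whose eIF4E cannot be phosphorylated, and a wild-type (WT) line. eIF4E is the protein that binds the cap of an mRNA and brings it to the ribosome. Heavy polysomal RNA, pooled from gradient fractions with more than 3 ribosomes on each mRNA, and total cytoplasmic RNA were measured from each line. The 4 groups, KI polysomal, WT polysomal, KI total and WT total RNA, held 2 arrays each, 8 in all. The embryos were at day 14.5, both lines had been immortalised by passage, and culture was in DMEM with 10% serum. Replicates were independent experiments on 1 pair of lines. A difference of genotype therefore cannot be told apart from a difference between these particular lines, and p-values measure the spread between experiments. The labels name no other allele and no agent for either line.

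Matrix proteoglycans are core proteins that carry long sulphated sugar chains, and the small leucine-rich ones bind to collagen fibrils. Thrombospondins, tenascin C and SPARC are matricellular proteins, which act on cells more than they build structure. Elastic fibres consist of elastin laid on microfibrils of fibrillin, with fibulins, microfibril-associated proteins and latent TGF-beta binding proteins attached, and lysyl oxidases cross-link the elastin. Nidogens, laminins and perlecan form basement membranes. Fibroblasts make most of these proteins, and they are secreted, so their mRNAs are translated at the endoplasmic reticulum.

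A value below is the deposited signal of a probe, taken as log2. Array medians were 7.69 to 7.73, and most probes were close to these medians, at the low end of the scale. An array's bottom band was set to end as far above its median as the 1st percentile lies below it, at 7.81 to 7.87. A group in that band has only an upper bound, and a difference against it is understated. Levels of different probes were not set against each other. Arrays of the same group correlated at 0.970 to 0.991 over all probes. WT total replicate 2, as labelled, correlated at 0.982 with KI total replicate 2 and at 0.970 with WT total replicate 1. With 2 arrays in the WT total group, this does not show which of them deviates. The Eif4e probe read 7.76 and 7.76 in KI polysomal RNA, against 8.66 and 8.44 in WT polysomal RNA. It read 7.67 and 7.76 in KI total RNA, against 7.82 and 7.76 in WT total RNA. A point mutation cannot be seen with it, so it does not check the labels. Of 9 fibroblast markers, 8 were above the filter on dim probes described below, and Fap was in the bottom band in every group. Smooth muscle markers had a mean level of 10.3 on each KI polysomal array, against 9.60 and 9.07 on the WT polysomal arrays. In total RNA their mean was 10.5 and 10.2 in KI, against 9.61 and 9.90 in WT. Of these 6 markers, Actg2 was the furthest apart (13.91 and 13.32 in KI polysomal RNA, against 9.28 and 8.62 in WT polysomal RNA), and Myh11 and Cnn1 were in the bottom band in all 4 groups. Des (desmin) lay the other way, at 7.78 and 7.76 in KI polysomal RNA, against 8.03 and 7.82 in WT polysomal RNA. Of 7 endothelial markers 5, Pecam1, Cdh5, Vwf, Tie1 and Tek, were in the bottom band throughout, while Flt1 passed between the lines in polysomal RNA. All 3 measured macrophage and leukocyte markers were in that band. What part the smooth muscle genes have in the differences below was not tested.

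Of the 36 measured genes, 28 had a probe above the filter, 46 probes in all of 12848 kept. The filter asked that a probe's mean over the 8 arrays be above the median of all probe means, 7.73. Genes that passed it through 1 high group had to differ, so counts over the 28 are not counts over the set. A group was counted in the bottom band only where both its arrays were. For the brightest probe of each gene, 19 genes were above the band on at least 1 array of all 4 groups. Another 6 were in the band in every group: Lum (lumican, a collagen-binding proteoglycan), Sparcl1 (a relative of SPARC), Postn (periostin), Matn2 (matrilin 2), Fbln5 (fibulin 5, an elastic fibre assembly protein) and Fbn2 (fibrillin 2). Eln (elastin) and Lama4 (a laminin alpha chain) left the band on 1 array of WT total RNA each. Eln read 7.93 on WT total replicate 2 and 7.66 to 7.69 on the other arrays, and Lama4 read 7.85 on WT total replicate 1 and 7.66 to 7.77 on the rest. These 8 genes were not tested. The elastic fibre was thus represented by its accessory genes, since its core genes were unmeasured or at the bottom of the scale.

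**Figure D1:**
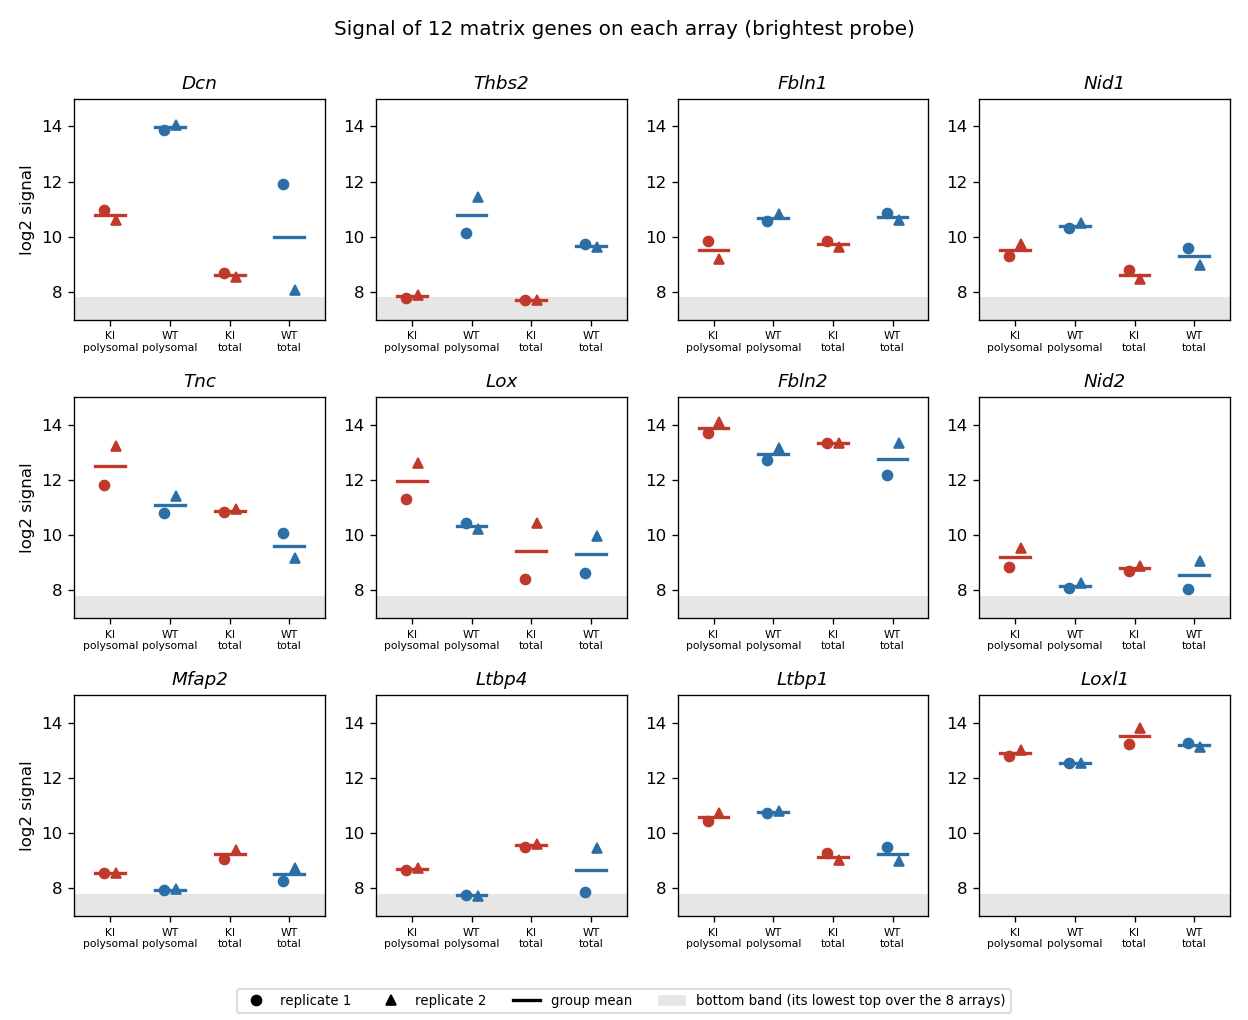
Deposited signal, taken as log2, of the brightest probe of 12 of the genes on each array, with KI polysomal, WT polysomal, KI total and WT total RNA from left to right, 2 arrays per group (circle replicate 1, triangle replicate 2, line the group mean, grey the bottom band). Dcn and Thbs2 show the widest gaps between KI and WT polysomal RNA, and WT total replicate 2 minus replicate 1 is -3.82 for Dcn.

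Promoter sequences are shown for 3 genes, Thbs2, Tnc and Nid1. KI and WT arrays of Thbs2 and Tnc did not overlap in either type of RNA and lay in opposite directions. Nid1 did not overlap in any of the 4 comparisons of 2 groups. The same held for Thbs2, Tnc, Bgn, Thbs1, Mfap2, Emilin1, Ltbp4 and Lamc1, so it does not set Nid1 apart. Each sequence shown is the 250 bases before the first transcription start of the gene in RefSeq on the mouse build GRCm38.p6, printed in the direction of the gene. Capitals mark the letters TATAAA, as in a TATA box, and GGGCGG, as in a GC box, read on both strands anywhere in the 250 bases. The distance to the start was not taken into account, so a marked stretch need not be a working promoter element. The Thbs2 window lay at chr17:14694263-14694512 on the minus strand, the Tnc window at chr4:64047016-64047265 on the minus strand and the Nid1 window at chr13:13437352-13437601 on the plus strand.
Thbs2: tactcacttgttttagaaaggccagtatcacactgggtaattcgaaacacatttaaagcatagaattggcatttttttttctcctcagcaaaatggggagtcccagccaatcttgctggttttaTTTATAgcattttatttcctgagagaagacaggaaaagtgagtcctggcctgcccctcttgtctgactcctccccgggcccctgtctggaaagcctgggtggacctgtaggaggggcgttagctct
Tnc: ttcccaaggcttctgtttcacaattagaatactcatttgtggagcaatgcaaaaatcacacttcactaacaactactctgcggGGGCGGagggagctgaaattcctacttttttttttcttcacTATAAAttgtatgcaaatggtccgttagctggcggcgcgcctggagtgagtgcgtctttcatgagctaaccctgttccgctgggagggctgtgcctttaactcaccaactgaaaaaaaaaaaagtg
Nid1: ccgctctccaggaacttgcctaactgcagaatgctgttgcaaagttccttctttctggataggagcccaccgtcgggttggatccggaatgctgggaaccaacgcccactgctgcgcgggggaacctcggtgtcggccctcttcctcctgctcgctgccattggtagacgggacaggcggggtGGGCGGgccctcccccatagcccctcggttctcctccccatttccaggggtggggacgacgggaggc

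The Thbs2 window held TATAAA on the opposite strand, where it reads TTTATA, and no GGGCGG. The Tnc window held both motifs, and the Nid1 window held GGGCGG alone. GC content was 46.8% in the Thbs2 window, 44.8% in the Tnc window and 64.4% in the Nid1 window. RefSeq windows were given for 24 of the 40 genes, at 35 starts. TATAAA occurred in 6 of the 35 windows (17.1%), those of Ogn, Postn, Spp1, Thbs2 and Tnc, against 12.4% of the 32851 windows of all genes. GGGCGG occurred in 20 of 35 (57.1%), against 32.7% of all windows. Windows of 1 gene can overlap and share a motif, and by gene GGGCGG occurred in 15 of 24. The AP-1 motif TGACTCA occurred in 0 of 35, against 4.46% of all windows. A match is a string of letters and not a bound site.

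The first comparison asked how the KI and WT lines differed in heavy polysomal RNA. No gene of the set passed limma's test there at an adjusted p below 0.05, 0 of the 28 genes and 0 of their 46 probes, beside 0.117% of all 12848 probes kept. At an unadjusted p below 0.05 there were 10 of 28 genes, with a background of 11.1% of probes. In 22 of the 28 genes (78.6%) both KI arrays lay on the same side of both WT arrays, 16 higher in KI and 6 lower, with a background of 51.9% of probes, 23% higher and 28.9% lower. The median difference over the 36 measured genes was 0.11, against 0.00 over every gene of the array. In bulk RNA, fewer cells that make an mRNA and less of it per cell cannot be told apart.

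In total RNA, too, 0 of 28 genes passed, with 0.07% of all probes kept as background, and 7 of 28 had an unadjusted p below 0.05 (background 8.72%). KI and WT total arrays did not overlap in 14 genes (50%), 9 higher in KI and 5 lower, against 31.4% of probes, 12.6% higher and 18.8% lower. The median over the 36 genes was 0.08, against -0.01 over every gene. In 12 of 28 genes (42.9%) the arrays of the lines were apart in the same direction in both types of RNA, which held for 17.5% of all probes kept. Those higher in KI were Bgn, Thbs1, Tnc, Mfap2, Emilin1, Ltbp4 and Lamc1, and those lower in KI were Thbs2, Fbln1, Ltbp2, Loxl2 and Nid1. Of these, Ltbp2 was in the bottom band in polysomal RNA of both lines, where its -0.02 cannot be read as a difference.

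**Figure D2:**
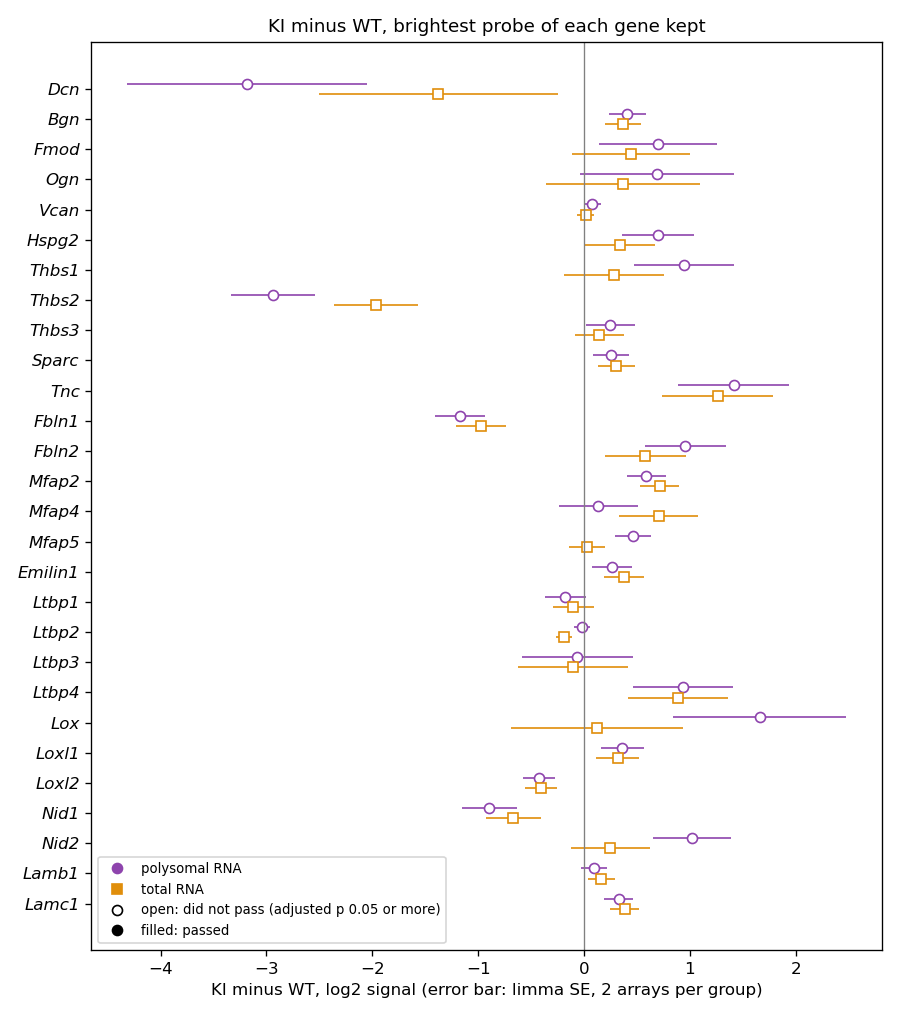
KI minus WT difference (log2, limma estimate with its standard error, 2 arrays per group) for the brightest probe of each of the 28 genes kept, in polysomal and in total RNA. Dcn (-3.18) and Thbs2 (-2.94) lie furthest below 0 and Lox (1.66) and Tnc (1.41) furthest above it in polysomal RNA, and none passed at an adjusted p below 0.05.

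Among the small leucine-rich proteoglycans, decorin (Dcn, on chromosome 10 at 97479500 to 97518163) had the widest gap between the lines. Its brighter probe read 10.96 and 10.62 in KI polysomal RNA, against 13.89 and 14.05 in WT polysomal RNA. It read 8.68 and 8.56 in KI total RNA, against 11.91 and 8.09 in WT total RNA. The polysomal arrays were apart by more than 2.9, while in total RNA WT replicate 2 lay below both KI arrays. The second Dcn probe read 9.17 and 9.09 in KI polysomal RNA, against 12.55 and 12.91 in WT polysomal RNA, and on WT total replicate 2 it lay in the bottom band (7.68). The difference in polysomal RNA was -3.18 ± 1.13 (SE) at the brighter probe (limma adjusted p = 0.389) and -3.60 at the other. In total RNA the brighter probe differed by -1.38 ± 1.13 (adjusted p = 0.802). The shared estimate of the spread for Dcn took in the gap between the WT total arrays, of which replicate 2 minus replicate 1 was -3.82. Without WT total replicate 2 both probes passed in polysomal and in total RNA (adjusted p = 0.0108 and 0.0307 at the brighter probe, -3.29 in total RNA). Without WT total replicate 1 they passed in polysomal RNA only (adjusted p = 0.0108).

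Biglycan (Bgn), the proteoglycan most like decorin in structure, read 14.40 and 14.44 in KI polysomal RNA, against 14.08 and 13.94 in WT polysomal RNA. It read 14.37 and 13.87 in KI total RNA, against 13.83 and 13.67 in WT total RNA. KI arrays were the higher ones in both types of RNA, by 0.41 ± 0.17 and 0.37 ± 0.17 (limma adjusted p = 0.465 and 0.635). Fibromodulin (Fmod) and osteoglycin (Ogn), further fibril-binding members of the family, were high on KI replicate 2 and near the WT level on KI replicate 1. Fmod read 7.83 and 9.02 in KI polysomal RNA, against 7.69 and 7.76 in WT polysomal RNA. Ogn read 8.27 and 10.05 in KI polysomal RNA, against 8.52 and 8.42 in WT polysomal RNA, so the groups overlapped for Ogn.

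Of the large proteoglycans, perlecan (Hspg2, the heparan sulphate proteoglycan of basement membranes) read 11.31 and 12.06 in KI polysomal RNA, against 10.74 and 11.24 in WT polysomal RNA. In total RNA it read 11.26 and 11.95 in KI, against 11.25 and 11.29 in WT, where the lines overlapped. Its difference was 0.70 ± 0.34 in polysomal RNA (limma adjusted p = 0.532). Versican (Vcan), a hyaluronan-binding proteoglycan, was in the bottom band in total RNA of both lines and read 7.94 and 7.87 in KI polysomal RNA, against 7.75 and 7.90 in WT polysomal RNA.

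The thrombospondins, which bind matrix proteins and cell surface receptors, differed among themselves. Thbs2 (chromosome 17, 14665500 to 14694262) read 7.78 and 7.91 in KI polysomal RNA, against 10.13 and 11.45 in WT polysomal RNA. It read 7.69 and 7.72 in KI total RNA, against 9.73 and 9.62 in WT total RNA. KI total RNA lay in the bottom band on both arrays and KI polysomal RNA on 1 of 2, while all 4 WT arrays were well above it. The difference was -2.94 ± 0.40 in polysomal RNA, with the smallest adjusted p of the set there (limma adjusted p = 0.102). In total RNA it was -1.97 ± 0.40 (adjusted p = 0.286), and counted from the top of the band the level was at least 3.64-fold lower in KI. The polysomal difference passed when the filter was set at the 75th percentile (adjusted p = 0.00736) and with a mean-dependent robust variance (adjusted p = 0.00832). It did not pass in the main fit or under the other alternatives that kept all arrays of both groups. The filter uses the mean over the 8 arrays, which the WT arrays raised, so the pass with the stricter filter is no separate support. With 1 array left out the polysomal difference ranged from -3.60 to -2.28.

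Thbs1, an activator of latent TGF-beta, read 9.14 and 10.71 in KI polysomal RNA, against 8.89 and 9.07 in WT polysomal RNA. It read 8.29 and 8.47 in KI total RNA, against 8.11 and 8.07 in WT total RNA. KI was the higher line in both, by 0.94 ± 0.47 in polysomal and 0.29 ± 0.47 in total RNA (limma adjusted p = 0.545 and 0.911). Thbs3 differed by 0.25 in polysomal RNA and 0.14 in total RNA, and its lines overlapped in total RNA (adjusted p = 0.851 and 0.909).

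Tenascin C (Tnc), a large matricellular protein of embryonic and wounded tissue, read 11.81 and 13.22 in KI polysomal RNA, against 10.79 and 11.42 in WT polysomal RNA. It read 10.84 and 10.93 in KI total RNA, against 10.06 and 9.18 in WT total RNA. All KI arrays were above the WT arrays of the same RNA, by 1.41 ± 0.53 in polysomal and 1.26 ± 0.53 in total RNA (limma adjusted p = 0.405 and 0.588). The second brightest of its 6 probes read 11.40 and 12.98 in KI polysomal RNA, against 10.48 and 11.18 in WT polysomal RNA. The 5 kept probes all read higher in KI in polysomal RNA, and in total RNA they ranged from -0.05 to 1.26. SPARC (Sparc), a collagen-binding matricellular protein, differed by 0.26 ± 0.17 and 0.31 ± 0.17 in the 2 types of RNA, polysomal first (adjusted p = 0.702 and 0.694).

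The fibulins, which link elastic fibres and basement membranes, lay in opposite directions. Fibulin 1 (Fbln1) read 9.84 and 9.21 in KI polysomal RNA, against 10.56 and 10.83 in WT polysomal RNA. It read 9.87 and 9.65 in KI total RNA, against 10.85 and 10.61 in WT total RNA. KI was lower throughout, by -1.17 ± 0.23 in polysomal RNA and -0.97 ± 0.23 in total RNA (limma adjusted p = 0.176 and 0.349). Its second kept probe read 7.94 and 7.86 in KI polysomal RNA, against 8.31 and 8.35 in WT polysomal RNA. Fibulin 2 (Fbln2) read 13.69 and 14.09 in KI polysomal RNA, against 12.72 and 13.15 in WT polysomal RNA. Its total RNA values were 13.35 and 13.32 in KI, against 12.19 and 13.32 in WT, where WT replicate 2 stood at the KI level. Its difference was 0.96 ± 0.38 in polysomal RNA (adjusted p = 0.44).

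Of the microfibril genes, Mfap2 (MAGP-1, a fibrillin-binding glycoprotein) read 8.55 and 8.55 in KI polysomal RNA, against 7.94 and 7.99 in WT polysomal RNA. It read 9.06 and 9.39 in KI total RNA, against 8.28 and 8.75 in WT total RNA. KI was higher in both, by 0.59 ± 0.18 and 0.72 ± 0.18 (limma adjusted p = 0.323 and 0.361). The other kept Mfap2 probes, nearer the bottom of the scale, also read higher in KI polysomal RNA. Mfap5 (MAGP-2) read 7.90 and 8.40 in KI polysomal RNA and was in the bottom band in WT polysomal RNA (7.72 and 7.67), a difference of 0.46 ± 0.17 (adjusted p = 0.405). Emilin1, a glycoprotein at the surface of elastic fibres, read 8.60 and 8.70 in KI polysomal RNA, against 8.26 and 8.51 in WT polysomal RNA. It read 8.81 and 9.34 in KI total RNA, against 8.77 and 8.63 in WT total RNA, a difference of 0.37 ± 0.19 (adjusted p = 0.661). Mfap4, another microfibril-associated glycoprotein, left the bottom band on KI replicate 2 (7.95 in polysomal and 8.96 in total RNA) and read 7.64 to 7.75 on the other arrays.

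The latent TGF-beta binding proteins hold TGF-beta in the matrix and bind microfibrils. Ltbp4 read 8.66 and 8.72 in KI polysomal RNA and was in the bottom band in WT polysomal RNA (7.78 and 7.74), so the level was at least 1.78-fold higher in KI, counted from the top of the band. It read 9.51 and 9.61 in KI total RNA, against 7.88 and 9.46 in WT total RNA. WT total replicate 2 stood near the KI level and WT total replicate 1 near the bottom of the scale. The difference was 0.94 ± 0.47 in polysomal RNA and 0.89 ± 0.47 in total RNA (limma adjusted p = 0.548 and 0.668). Both p-values rest on a shared spread that took in the gap between the WT total arrays, where replicate 2 minus replicate 1 was 1.59. Without WT total replicate 2, which leaves 1 array in that group, the total RNA difference was 1.68, and 1.74 at a second probe. Without WT total replicate 1 the WT side is the 9.46 of replicate 2, near the KI level. The third kept Ltbp4 probe differed by 0.12 in polysomal and 0.07 in total RNA. Ltbp1 differed by -0.18 and -0.10, polysomal first, and Ltbp3 by -0.06 and -0.10, and the lines overlapped for both. Ltbp2 was near the bottom of the scale, at 7.67 and 7.79 in KI total RNA, against 7.91 and 7.93 in WT total RNA. In polysomal RNA both lines were in the bottom band (7.78 and 7.76 in KI, 7.79 and 7.79 in WT).

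The lysyl oxidases, which cross-link elastin and collagen, also split. Lox read 11.32 and 12.63 in KI polysomal RNA, against 10.42 and 10.21 in WT polysomal RNA. In total RNA it read 8.41 and 10.43 in KI, against 8.62 and 9.98 in WT. The lines were apart in polysomal RNA, by 1.66 ± 0.82 (limma adjusted p = 0.538), and overlapped in total RNA (0.12 ± 0.82, adjusted p = 0.983). Loxl1, the family member tied to elastic fibres, differed by 0.36 ± 0.20 in polysomal RNA and 0.32 ± 0.20 in total RNA (adjusted p = 0.605 and 0.742). Loxl2 was in the bottom band in both KI groups and read 8.15 and 8.08 in WT polysomal RNA and 8.29 and 7.84 in WT total RNA. Its differences were -0.43 ± 0.15 and -0.41 ± 0.15, polysomal first (adjusted p = 0.382 and 0.529).

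In the basement membrane group the nidogens, which bridge laminin and collagen IV networks, lay in opposite directions. Nid1 read 9.29 and 9.73 in KI polysomal RNA, against 10.30 and 10.50 in WT polysomal RNA. It read 8.78 and 8.47 in KI total RNA, against 9.61 and 8.97 in WT total RNA. KI was lower in both, by -0.90 ± 0.26 and -0.67 ± 0.26 (limma adjusted p = 0.294 and 0.56). Nid2 read 8.85 and 9.52 in KI polysomal RNA, against 8.09 and 8.25 in WT polysomal RNA, a difference of 1.02 ± 0.37 (adjusted p = 0.397). Its total RNA arrays read 8.71 and 8.88 in KI, against 8.03 and 9.05 in WT, and the lines overlapped. The laminin gamma 1 chain (Lamc1) read 8.88 and 8.76 in KI polysomal RNA, against 8.45 and 8.53 in WT polysomal RNA. It read 8.72 and 8.59 in KI total RNA, against 8.45 and 8.10 in WT total RNA, a difference of 0.38 ± 0.14 (adjusted p = 0.507). The beta 1 chain (Lamb1) differed by 0.09 and 0.17, polysomal first.

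Where several probes of a gene were kept, 11 genes in all, they had the same sign for every one of the 11 in polysomal RNA and for 8 of 11 in total RNA. Ltbp1, Thbs3 and Tnc had probes of either sign in total RNA.

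The next comparison set heavy polysomal against total RNA within each line, which shows how an mRNA's share of the heavily translated pool stood to its share of the cytoplasm. Equal amounts of 250 ng of RNA were labelled, so the differences are relative to other mRNAs. In KI, 5 of 28 genes passed (17.9%), Ltbp1, Sparc, Nid1 and Thbs1 higher in polysomal RNA and Mfap2 lower, beside 36.9% of all probes kept, 21% higher and 15.9% lower. The arrays of the 2 types of RNA did not overlap in 19 of 28 genes (67.9%), against 72.6% of probes. In WT, too, 5 of 28 passed, Ltbp1, Nid1, Sparc and Dcn higher and Loxl1 lower, beside 37.5% of probes, 20.8% higher and 16.7% lower. The arrays did not overlap in 20 genes (71.4%), against 74% of probes. Ltbp1, Sparc and Nid1 passed in both lines, and 22 of 28 genes had the same sign in both. The matching shares over all probes kept were not counted, so these counts are not read as a trait of the set.

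**Figure D3:**
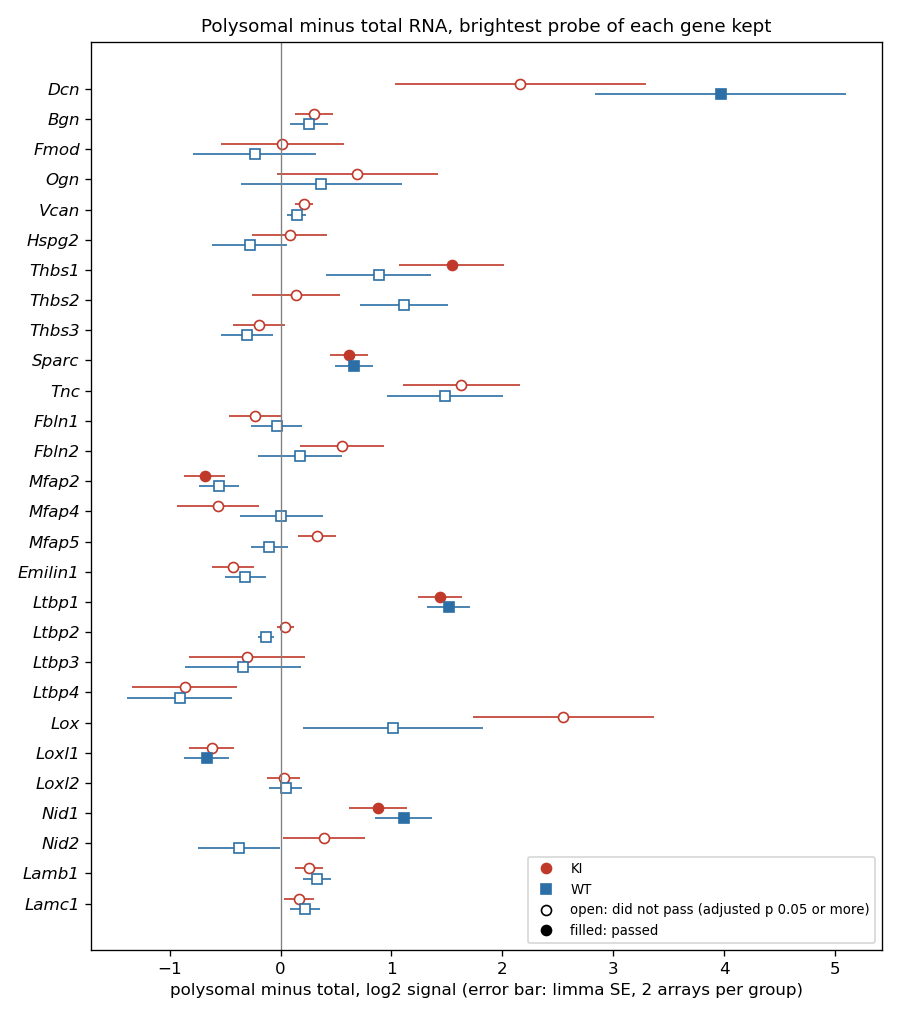
Polysomal minus total RNA difference (log2, limma estimate with its standard error, 2 arrays per group) for the brightest probe of the 28 genes kept, in KI and in WT, with filled points for an adjusted p below 0.05. Ltbp1 passes at 1.44 in KI and 1.52 in WT, and Dcn in WT (3.97) is the largest difference.

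Ltbp1 (chromosome 17, 75005480 to 75392512), which tethers latent TGF-beta to the matrix, had the smallest adjusted p of the set in both lines. It read 10.43 and 10.74 in KI polysomal RNA, against 9.27 and 9.02 in KI total RNA. In WT it read 10.73 and 10.79 in polysomal RNA, against 9.49 and 9.00 in total RNA. Every polysomal array was above every total array, by 1.16 and 1.72 in the 2 KI cultures and 1.24 and 1.79 in the 2 WT cultures. Polysomal RNA was higher by 1.44 ± 0.20 in KI and 1.52 ± 0.20 in WT (limma adjusted p = 0.00483 and 0.00395). The other 5 Ltbp1 probes stayed at 7.57 to 7.91 on every array, and the 1 of them that was kept differed by -0.10 in KI and -0.06 in WT, so the rise rests on 1 probe. It passed under every alternative run, with an adjusted p of at most 0.0347 in KI and 0.0323 in WT when 1 array was left out.

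Nid1 (chromosome 13, 13437602 to 13512275) rose in polysomal RNA by 0.88 ± 0.26 in KI and 1.11 ± 0.26 in WT (limma adjusted p = 0.0441 and 0.0216). The KI cultures were apart by 0.51 and 1.25 and the WT cultures by 0.69 and 1.53. With the culture as a block, KI did not pass (adjusted p = 0.0734), and WT did (adjusted p = 0.0419). Sparc (chromosome 11, 55394159 to 55420080) read 13.43 and 13.73 in KI polysomal RNA, against 12.97 and 12.95 in KI total RNA. In WT it read 13.53 and 13.11 in polysomal RNA, against 12.59 and 12.73 in total RNA. The types of RNA did not overlap in either line, and polysomal RNA was higher by 0.62 ± 0.17 in KI and 0.67 ± 0.17 in WT (adjusted p = 0.0377 and 0.0295). With the culture block the KI value did not pass (adjusted p = 0.058) and the WT value did (adjusted p = 0.048). A second Sparc probe of like brightness differed by 0.07 in KI and 0.03 in WT, so the probes of this gene disagreed.

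Dcn rose in WT polysomal RNA at both probes, by 3.97 ± 1.13 at the brighter and 3.72 ± 0.79 at the other (limma adjusted p = 0.0391 and 0.0163). The WT cultures were apart by 1.98 and 5.97 at the brighter probe. Without WT total replicate 1 the difference was 5.88 and without WT total replicate 2 it was 2.06. In KI the cultures were apart by 2.27 and 2.05, closer together than in WT, and the difference of 2.16 ± 1.13 did not pass with the shared spread (adjusted p = 0.188). It did pass when the KI arrays alone were fitted (adjusted p = 0.0127) and without either WT total array (adjusted p = 0.00223).

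Thbs1 was higher in KI polysomal RNA by 1.54 ± 0.47 (limma adjusted p = 0.0491), with 0.85 and 2.24 in the 2 cultures. The KI value was 2.33 without KI polysomal replicate 1 and 0.76 without KI polysomal replicate 2, and passed in both cases (adjusted p = 0.00866 and 0.0353). It did not pass with any 1 of the other 6 arrays left out, or when the KI arrays alone were fitted. In WT it was 0.88 ± 0.47 (adjusted p = 0.194), with 0.78 and 0.99 in the cultures. The WT value passed when the WT arrays alone were fitted (adjusted p = 0.0173) and without either KI polysomal array (adjusted p = 0.00971). The difference between the lines, 0.66 ± 0.67, did not pass (adjusted p = 1). Tnc differed by 1.63 ± 0.53 in KI and 1.48 ± 0.53 in WT, just short of the threshold (adjusted p = 0.0565 and 0.0729), and no polysomal array overlapped a total array of its line. Both Tnc values passed with the filter at the 75th percentile (adjusted p = 0.0143 in KI and 0.0213 in WT). Thbs2, whose KI arrays were near the bottom of the scale in both types of RNA, differed by 1.11 ± 0.40 in WT (adjusted p = 0.0743), with 0.40 and 1.83 in the cultures. It was 1.77 without WT polysomal replicate 1, where it passed (adjusted p = 0.00971), and 0.45 without WT polysomal replicate 2. It also passed with the filter at the 75th percentile (adjusted p = 0.0276) and with the robust variance (adjusted p = 0.0322).

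Some genes were lower in polysomal RNA. Mfap2 fell by 0.68 ± 0.18 in KI (limma adjusted p = 0.0339), and its WT difference was -0.55 ± 0.18 (adjusted p = 0.0609). Loxl1 read 12.78 and 13.03 in KI polysomal RNA, against 13.23 and 13.81 in KI total RNA. In WT it read 12.53 and 12.55 in polysomal RNA, against 13.27 and 13.14 in total RNA. It was the lower in polysomal RNA on every array of its line, by -0.62 ± 0.20 in KI, which did not pass (adjusted p = 0.0588), and by -0.66 ± 0.20 in WT, which did (adjusted p = 0.0475). With the culture block both lines passed for Loxl1 (adjusted p = 0.0245 in KI and 0.0209 in WT). Emilin1 had differences of -0.43 in KI and -0.32 in WT and did not pass (limma adjusted p = 0.129 and 0.238), though without KI total replicate 1 the KI value was -0.69 and passed (adjusted p = 0.0273). Ltbp4 had -0.86 ± 0.47 in KI and -0.91 ± 0.47 in WT and did not pass (adjusted p = 0.205 and 0.183). The KI cultures of Ltbp4 were apart by -0.84 and -0.89, and its KI value passed when the KI arrays alone were fitted (adjusted p = 0.0165) and without either WT total array (adjusted p = 0.0034). In WT the cultures were apart by -0.10 and -1.72, so the value was -1.70 without WT total replicate 1, where it passed (adjusted p = 0.0022), and -0.12 without WT total replicate 2. Lox went the other way from Loxl1: it differed by 2.55 ± 0.82 in KI (adjusted p = 0.0554, and 0.0163 with the culture block) and by 1.01 ± 0.82 in WT (adjusted p = 0.376). The Ogn difference in KI, 0.69, also passed with the culture block (adjusted p = 0.0475, against 0.509 without). KI total RNA read 7.66 and 9.28 for Ogn, with replicate 1 in the bottom band, so the difference of that culture is only a bound.

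Apart from Ltbp1, the calls were near the threshold. In leave-one-out fits the adjusted p reached 0.14 for Mfap2, 0.178 for Sparc, 0.2 for Nid1 and 0.152 for Thbs1 in KI. In WT it reached 0.113 for Nid1, 0.118 for Sparc, 0.149 for Dcn and 0.161 for Loxl1. The arrays whose removal ended a call included arrays of the other line, which enter only through the shared spread.

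The third comparison asked whether the polysomal minus total difference itself differed between KI and WT, which is the interaction in the same fit and is called polysomal loading here. It used the same arrays as the comparisons above. By limma 0 of 28 genes passed, with 0% of all probes as background. At an unadjusted p below 0.05 there were 0 of 28, against 2.34% of probes. The culture differences of the lines did not overlap in 8 of 28 genes (28.6%), against 28.5% of probes. The adjusted p was 1 for each gene, and the intervals stayed wide.

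Dcn had the most negative loading difference, -1.81 with a 95% interval of -5.75 to 2.13, from 2.27 and 2.05 in the KI cultures and 1.98 and 5.97 in the WT cultures. It moved to -3.72 without WT total replicate 1, where it passed (limma adjusted p = 0.0303), and to 0.10 without WT total replicate 2. Lox had the most positive, 1.54 with an interval of -1.31 to 4.38, from 2.91 and 2.20 in KI and 1.80 and 0.23 in WT. Nid2 had 0.77 (-0.52 to 2.07), from 0.15 and 0.65 in KI and 0.05 and -0.81 in WT. For Thbs2 the value was -0.97 (-2.36 to 0.41), with KI total RNA in the bottom band, where a difference cannot be measured. For the 3 genes that passed in both lines the estimates were close to 0: -0.08 for Ltbp1 (-0.76 to 0.61), -0.05 for Sparc (-0.65 to 0.55) and -0.23 for Nid1 (-1.14 to 0.68). These intervals leave room for differences of more than 0.5 in either direction.

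The share of genes whose replicates were far apart was larger among the matrix genes kept than among all genes kept. The 2 sets were not matched for signal level, so the shares were not compared at like brightness. The 2 arrays of a group differed by more than 1 in 5 of 28 genes (17.9%) in KI polysomal RNA, 1 of 28 (3.57%) in WT polysomal RNA, 5 (17.9%) in KI total RNA and 5 (17.9%) in WT total RNA. The same held for 1.18%, 0.498%, 2.41% and 3.97% of the 8832 genes with a probe kept, in that order of groups. The median distance between replicates was 0.30 in KI polysomal RNA for the 28 genes, against 0.11 for all 8832. It was 0.16 against 0.10 in WT polysomal RNA, 0.23 against 0.20 in KI total RNA and 0.29 against 0.19 in WT total RNA.

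In KI, each gene whose replicates differed by more than 1 was higher on replicate 2 (the direction over all genes was not counted). Lox was higher there by 1.30 in polysomal and 2.01 in total RNA, Ogn by 1.78 and 1.62, and Fmod by 1.19 and 1.41. Thbs1 (1.57) and Tnc (1.41) passed a distance of 1 in polysomal RNA alone, with 0.185 and 0.083 in total RNA. Mfap4 (1.21) and Ltbp3 (1.22) passed it in total RNA alone. In WT total RNA, replicate 2 minus replicate 1 was -3.82 for Dcn, while Ltbp4 was higher by 1.59, Lox by 1.36, Fbln2 by 1.14 and Nid2 by 1.02. In WT polysomal RNA the gene was Thbs2, at 1.32. Lox thus differed by more than 1 between replicates in 3 of the 4 groups.

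**Figure D4:**
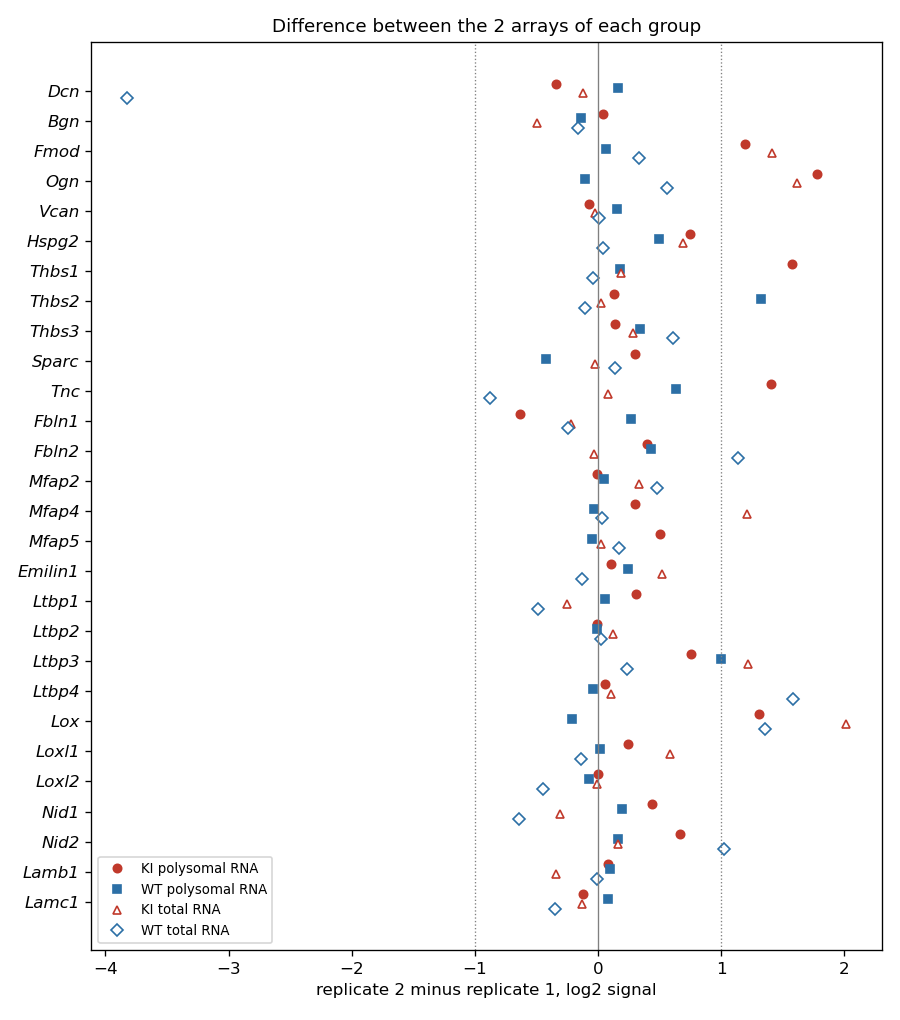
Replicate 2 minus replicate 1 (log2) for the brightest probe of the 28 genes kept, by group. Dcn in WT total RNA lies at -3.82, and Lox, Ogn and Fmod lie above 1 in both KI groups.

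Lists of other genes that act with these proteins were described in the same fit. Between KI and WT, no kept gene of any of the 4 lists passed in polysomal or in total RNA. The lists held 23 kept enzymes of glycosaminoglycan synthesis, 24 cell surface matrix receptors, 18 genes of TGF-beta signalling and 27 other matrix glycoproteins and proteoglycans. In polysomal RNA 10 of the enzymes were higher in KI and 13 lower, and of the receptors 16 and 8. Of the TGF-beta genes 12 were higher and 6 lower, and of the other matrix genes 23 and 4. Among all 8832 genes with a probe kept, 4063 were higher and 4769 lower. Agrn (agrin, a heparan sulphate proteoglycan of basement membranes) differed by 1.62 in polysomal and 1.67 in total RNA (limma adjusted p = 0.221 and 0.334). Another gene of its list had the smallest adjusted p in polysomal RNA (limma, 0.162). Tgfbr2, the TGF-beta receptor that binds the ligand first, differed by 1.32 in polysomal RNA (adjusted p = 0.167), and Dag1 (dystroglycan, a laminin receptor) by 0.89 (adjusted p = 0.268).

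Between polysomal and total RNA, 11 of 23 enzymes of glycosaminoglycan synthesis passed in KI (6 higher, 5 lower) and 9 in WT (4 higher, 5 lower). Extl2, a transferase of heparan sulphate synthesis, was higher in polysomal RNA by 1.12 in KI and 1.21 in WT. B4galt7, which adds the first galactose of the linker that ties the chain to the core protein, had differences of -0.79 and -1.06. Of the 24 receptors, 9 passed in KI (6 higher, 3 lower) and 8 in WT (5 higher, 3 lower). Itgb1, the shared integrin beta 1 chain, was higher by 2.00 in KI and 1.84 in WT, and Sdc2 (syndecan 2) by 1.83 in each. Sdc4 (syndecan 4) fell by 1.68 in KI. Of the 18 TGF-beta genes, 8 passed in KI (6 higher, 2 lower) and 6 in WT (5 higher, 1 lower), with Smad5, a receptor-regulated Smad, higher by 1.33 in each line. Of the 27 other matrix genes, 5 passed in KI (2 higher, 3 lower) and 4 in WT (2 higher, 2 lower), with Fstl1 (follistatin-like 1, a secreted glycoprotein) higher by 1.88 and 1.58. The shares that passed, beside a background of 36.9% in KI and 37.5% in WT, were 47.8% and 39.1% for the enzymes, 37.5% and 33.3% for the receptors, 44.4% and 33.3% for the TGF-beta genes and 18.5% and 14.8% for the other matrix genes, KI first.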

How the data were processed

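Polysomal and total RNA of 1 KI and 1 WT line was measured on 8 Illumina bead arrays, 2 per group. The deposited values are the authors' processed signal and were taken as log2, since all were positive and lay within the range of a scanner on that scale. The submitters' processing notes name lumi, with no version or role. The sources used here give neither the log base nor how the background was corrected or the arrays normalized. A second deposited table held the same values within 1e-06, in 8 columns under names that no label gives, and was not used.

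Of the 25697 probes, 23978 carried 1 gene symbol, 1719 carried none and 0 carried more than 1, and 23962 were matched to RefSeq (GRCm38.p6) by gene ID. Gene coordinates are RefSeq's, and probe positions were not used. The brighter 12848 probes were kept, by their mean over the 8 arrays. limma 3.58.1 in R 4.3.3 (lmFit, eBayes) fitted 4 group means at probe level with no block (4 residual and 1.8 prior degrees of freedom). Tests were two-sided with Benjamini-Hochberg adjustment over all probes kept, at a threshold of 0.05. Precision is limited by the number of arrays. A fold of at least N counts from the top of the bottom band, the higher of it and the probe's own value on each dim array.

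Members, lists, tests and alternatives were chosen with earlier results of these data known. Values are given for up to 10 members per comparison by smallest p, for every member that passed, and for those whose arrays did not overlap with a difference over 1. Of each other list up to 4 genes by smallest p were eligible. Polysomal and total RNA of 1 culture have a common source name. They were read as pairs in the culture differences and in the block by culture, while the main fit did not pair them. Deviations from group means over probes correlated at 0.56 within KI cultures and 0.04 within WT cultures. Between the lines only the replicate number is shared, and deviations of the same number correlated at 0.23 in polysomal and 0.40 in total RNA. Alternatives were quantile normalization, median centring, no filter or a filter at the 75th percentile, 1 probe per gene, only the groups compared, a trended robust variance, blocks by culture and by number, and leaving out each array.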

Additional observations from a re-analysis of the deposited data

Results flagged for a closer look

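Hspg2 was picked out because its polysomal minus total difference was positive in both KI cultures (0.06 and 0.11) and negative in both WT cultures (-0.51 and -0.05). The difference between the lines was 0.36, and in limma's interaction it did not pass (adjusted p = 1). It was -0.01 without KI polysomal replicate 2. Such opposite directions occurred in 1 of 28 members (3.57%) and in 2.3% of all probes kept.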

How the results depend on the processing

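With 2 arrays a group and 1 line a genotype, the calls rest on few degrees of freedom, and genes near the bottom of the signal scale have only bounds. Between KI and WT in polysomal RNA, 15 of all probes passed, and this became 32 with the filter at the 75th percentile, 5 with 1 probe per gene, 88 with the trended robust variance and 3 with only the groups compared. The members' count of 0 became 1 (Thbs2) with the stricter filter and with the robust variance. In total RNA the 9 probes became 16 with no filter, 14 with the stricter filter, 67 with the robust variance and, with limma on only the groups compared, 0 (645 at an unadjusted p below 0.05). The members' median of 0.08 became 0.10 after quantile normalization. For polysomal against total RNA the members' 5 probes in KI became 2 with no filter, 8 with the stricter filter and 12 with the robust variance, and the 6 in WT became 2 with no filter and 3 with only the groups compared. The KI median of 0.06 was 0.045 (quantile) or 0.025 (centred), the WT median of 0.012 was -0.018 (centred), and the loading median of 0.039 was 0.022 (quantile). The cause of these changes was not tested.

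With a replicate block by number, 20 and 12 probes passed between the lines, polysomal first, and 0 members in each. With the block by culture, 6 member probes passed in KI and 6 in WT. Leaving out 1 array gave 0 to 58 probes of all, 0 to 4 of the members and a median of 0.051 to 0.277 between the lines in polysomal RNA. In total RNA it gave 0 to 44, 0 to 4 and 0.019 to 0.138. For polysomal against total RNA it gave 1875 to 5121, 2 to 9 and 0.024 to 0.093 in KI, and 1903 to 5006, 2 to 8 and 0.010 to 0.030 in WT. For loading it gave 0 to 10, 0 to 2 (both Dcn, without WT total replicate 1) and -0.017 to 0.068. Loading values that changed sign ranged from -3.72 to 0.10 for Dcn, -1.178 to 0.032 for Mfap4, -0.13 to 1.45 for Thbs1, -0.009 to 0.736 for Hspg2 and -0.19 to 0.94 for Fbln2, where the sign turned without WT total replicate 2 (Dcn, Fbln2), KI total replicate 2 (Mfap4) or KI polysomal replicate 2 (Thbs1, Hspg2).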
